A study of Mus musculus with 6 samples.

Results

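Diabetic mouse hearts that received an adeno-associated virus (AAV) encoding a dominant negative MCUb (dnMCUb) were compared with diabetic hearts that received an empty AAV, which asks how the cargo of the vector altered the heart transcriptome. The comparison takes 4 of the study's 6 heart libraries, 2 per group, assigned by their sample labels. C57BL/6 mice entered the diabetes protocol at 12 weeks of age, with a diet that supplied 60% of calories as fat and 1 dose of streptozotocin, a beta cell toxin, at 75 mg/kg. Type 2 diabetes (T2D) was defined after 20 weeks of the diet. Virus was given into a jugular vein at 16 to 18 weeks from streptozotocin, and hearts were studied 4 weeks later, at 5 to 6 months from induction. Both diabetic groups therefore shared strain, diet, streptozotocin and viral injection. They differed in the cargo, which the sample labels give as a FLAG-tagged mouse MCUb with the changes W246R and V251E. The codon changes in the same label, read as codons, do not encode those protein changes, and the design text of the series names MCUb without calling it dominant negative, so dnMCUb is used here as the sample labels' name for the vector. The viral serotype and the promoter that drives the transgene are not given in the sources used. The diabetic groups are named T2D empty vector and T2D dnMCUb below. A group of 2 control libraries, from mice on regular chow without vector, gives a reference level below and shares the estimate of spread. Nothing in the labels tells whether a group's libraries are separate animals, and the p-values reflect only how far these libraries spread.

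The mitochondrial calcium uniporter is the channel through which calcium enters the mitochondrial matrix. Its pore is built from MCU and, in some complexes, the paralogous subunit MCUb, which lowers calcium entry. Matrix calcium stimulates dehydrogenases that feed the respiratory chain, so the channel links the heartbeat to fuel use. Several of the gene groups described below belong to the innate antiviral response. In that pathway, sensors of foreign or misplaced nucleic acid activate interferon regulatory factors, type I interferon is made, and its receptor signals through kinases and transcription factors, among them IRF9, to a large set of effector genes.

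Values are regularized log (rlog) values on the log2 scale, in which the authors' transformation draws each gene towards its mean. Over the 8 tested genes with an adjusted p under 0.05 in the authors' deposited table, the rlog difference was a median 0.465 of their log2 fold. That share was not the same for every gene: Ryr2 differed by -0.228 against their -0.315, and Myh6 by -0.065 against -0.069. The differences printed here are therefore not folds, and can understate them by unequal amounts. Depth is unknown, since the values are not counts. Library 1 labelled dnMCUb stood apart: it lay at 10.8 on the first principal component, which held 46.7% of the variance, and the other 5 libraries lay between -4.42 and 2.69. The SD over genes of the difference between a group's 2 libraries was 0.135 in T2D dnMCUb, 0.0829 in T2D empty vector and 0.0758 in control, while the SD of the difference between the diabetic group means was 0.0716. For 5932 of 13094 genes (45.3%) the libraries labelled dnMCUb lay on opposite sides of the T2D empty vector mean. The medians of gene lists are therefore given for each library too, relative to the same T2D empty vector mean. All 12 ventricular myocyte markers were measured, with a summed level of 20.1 to 20.5 (log2 of the sum over genes) in the 6 libraries. No marker of neutrophils or of T and natural killer cells reached the mean rlog of 5 required for testing, and the airway markers Sftpc and Krt5 were listed at 0.

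Across the 13094 genes tested, no single gene separated the diabetic groups after correction. Limma with Benjamini-Hochberg adjustment called 0 genes (0.0% of those tested), and the smallest adjusted p was 0.646, for Irf7. At an unadjusted p under 0.05 there were 408 genes higher in T2D dnMCUb (3.12%) and 331 lower (2.53%), 739 together (5.64%). Groups are called apart where both libraries of one lie above both of the other. T2D dnMCUb was apart on the higher side for 2044 genes (15.6%) and on the lower side for 2167 (16.5%), and its mean was the higher one for 6488 genes (49.5%). These shares are the background for the counts of list members given below. The median difference over all genes was -0.00051. Without library 1 labelled dnMCUb limma called 14 genes, and without library 2 it called 0. In the authors' deposited table, 9 genes have an adjusted p under 0.05 (0.0311% of its 28906 genes with a p-value), all 9 higher in T2D dnMCUb, and 259 at an unadjusted p under 0.05 (0.896%).

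**Figure D1:**
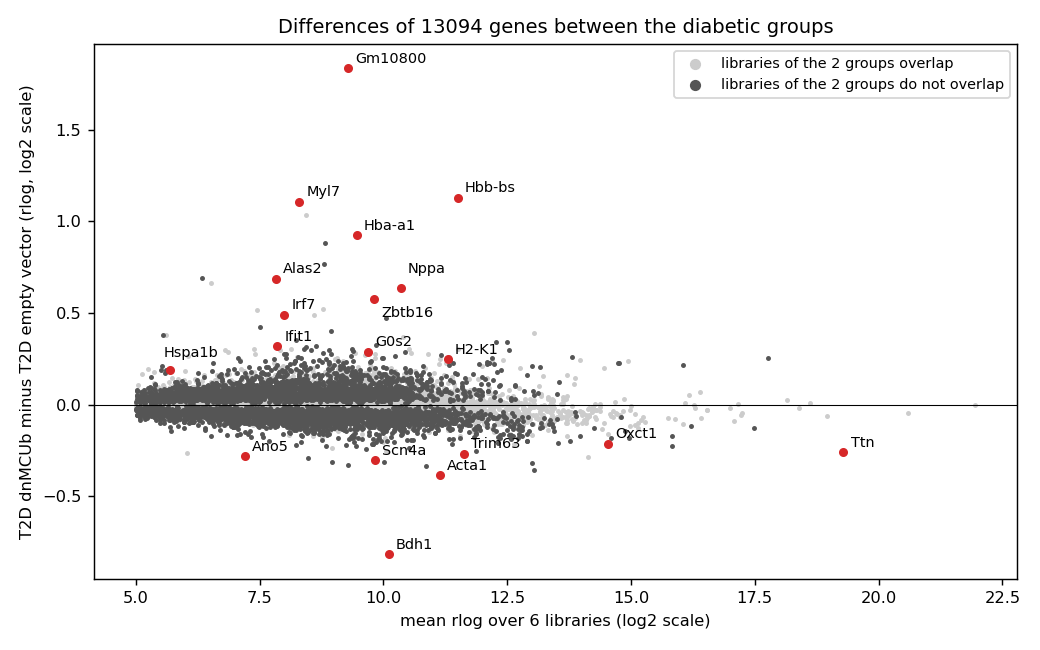
Difference between the diabetic groups (T2D dnMCUb minus T2D empty vector, rlog, vertical axis) against the mean rlog of each gene over 6 libraries (horizontal axis), for all 13094 genes tested. Dark points are genes whose groups do not overlap, and named genes are in red; Hbb-bs lies at 1.13, Irf7 at 0.49 and Bdh1 at -0.82.

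Mcub, whose mutated form the vector encodes per the labels, overlapped between the diabetic groups. Its rlog stood at 5.42 and 5.47 in the control libraries, 5.48 and 5.46 with empty vector and 5.62 and 5.47 with dnMCUb. Library 1 labelled dnMCUb was the highest of the 6, and library 2 lay between the T2D empty vector libraries. The difference was 0.078 (SE 0.048; limma adjusted p = 0.888). The authors' deposited table gives a larger log2 fold of 0.65 for it, with an unadjusted p of 0.195. Whether the vector's coding reads were assigned to this gene is not given in the sources used, so the libraries are called by their label throughout.

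The uniporter's own genes were nearly level between the diabetic groups. Of 7 tested, 3 were higher and 4 lower in T2D dnMCUb, and 0 had groups apart, with a median of -0.014 (-0.0058 and 0.00031 by library). The pore gene Mcu differed by 0.014, Smdt1, which encodes the pore's essential small regulator EMRE, by -0.014, the gatekeeper Micu2 by -0.043, and the assembly factor Mcur1 by -0.062. The 12 genes for calcium exit and outer membrane passage had a median of -0.026 (-0.124 and 0.026 by library). Apart on the higher side were 2 (16.7%, against 15.6% over all genes tested) and on the lower 1 (8.33%, against 16.5%). Letm1, an inner membrane protein of cation and proton exchange, stood at 10.55 and 10.52 with empty vector and at 10.33 and 10.44 with dnMCUb, lower by 0.15 (SE 0.051; limma adjusted p = 0.869). Slc8b1, the mitochondrial sodium-calcium exchanger, stood at 7.39 and 7.41 and then 7.46 and 7.46, with the groups just apart and the difference at 0.061.

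Genes of the interferon system stood higher in both libraries labelled dnMCUb. Irf7, the transcription factor that amplifies type I interferon production, had an rlog of 7.77 and 7.69 in the control libraries, 7.88 and 7.89 with empty vector and 8.29 and 8.46 with dnMCUb. Both libraries labelled dnMCUb were far above the other 4. The difference was 0.49 (SE 0.06; limma adjusted p = 0.646), it was 0.40 in library 1 and 0.57 in library 2, and the log2 fold in the authors' deposited table was 1.27 (adjusted p = 9.16e-05). Irf7 is a protein-coding gene on the minus strand of chromosome 7, from 141263183 to 141266481 in GRCm38. It was among the 14 genes that limma called without library 1 labelled dnMCUb (adjusted p = 0.00926), and its adjusted p without library 2 was 0.0655. In bulk tissue, more cells that express a gene and more RNA per cell cannot be told apart, here and below.

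Upstream of Irf7 lie the nucleic acid sensors. Of 15 tested, 13 were higher, 10 apart on that side (66.7%, against 15.6% over all genes) and 1 on the other (6.67%, against 16.5%). The median was 0.065 (0.086 in library 1 and 0.070 in library 2). Ifih1, which encodes the long double-stranded RNA sensor MDA5, had an rlog of 8.90 and 8.92 with empty vector and 9.09 and 9.03 with dnMCUb. Ddx58, encoding the RNA sensor RIG-I, stood at 8.89 and 8.90 with empty vector and 8.98 and 9.04 with dnMCUb. The libraries labelled dnMCUb were above both others for each gene, by 0.15 and 0.12. Genes of the Ifi200 family, whose products bind DNA, were higher by 0.18 (Ifi204), 0.19 (Ifi205), 0.15 (Ifi207), 0.12 (Ifi211) and 0.11 (Ifi203). These are closely related genes, and reads may be split among them.

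Among receptors and transcription factors, Irf7 had the largest difference. Of 17 tested, Irf7 included, 13 were higher. The groups were apart on that side for 9 (52.9%, against 15.6% over all genes) and on the other for 1 (5.88%, against 16.5%). The median was 0.040 (0.069 in library 1 and 0.045 in library 2). The other 16 ran from -0.058 to 0.10. Stat2 was higher by 0.078, Irf1 by 0.070, Irf5 by 0.090 and Irf9 by 0.040, all with groups apart. Socs3, a feedback inhibitor of cytokine signalling, was at 0.10. Of the kinases behind the receptors, Jak1 was at -0.058 and Tyk2 at -0.055, and the receptor gene Ifnar2 was at 0.029.

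The effectors were higher with 1 exception. Of 52 tested, 51 were higher in T2D dnMCUb, and 30 had an unadjusted p under 0.05. On the higher side 42 were apart (80.8%, against 15.6% over all genes), and 0 on the lower (against 16.5%). The median was 0.115, against -0.00051 over all genes tested. It was 0.115 in library 1 and 0.115 in library 2 labelled dnMCUb, and 0.109 and 0.115 without T2D empty vector library 1 or 2.

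Ifit1, whose product binds RNA lacking the host cap modification, had an rlog of 7.61 and 7.57 in the control libraries, 7.77 and 7.87 with empty vector and 8.08 and 8.20 with dnMCUb. Its groups lay in ascending order with no overlap, and it was higher in T2D dnMCUb by 0.32 (SE 0.053; limma adjusted p = 0.78). The neighbouring Ifit3 and Ifit3b were higher by 0.25 and 0.17, and Ifit2 by 0.22. Ifi44, an interferon-induced gene, stood at 6.94 and 6.97 in the control libraries, 7.06 and 7.04 with empty vector and 7.31 and 7.27 with dnMCUb, so the 2 T2D dnMCUb libraries nearly coincided above the rest (difference 0.24, SE 0.035). Oasl2, of the oligoadenylate synthetase family, was higher by 0.21 and Oas2 by 0.16. Rsad2, which encodes viperin, was higher by 0.14, and Mx2, a dynamin-like antiviral GTPase, by 0.11.

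Membrane restriction factors and the ISG15 system showed the same direction. Bst2, which encodes tetherin and holds budding virus at the cell surface, had 7.89 and 7.998 with empty vector and 8.17 and 8.27 with dnMCUb. Ifitm3, which blocks viral fusion in endosomes, was at 9.77 and 9.89 and then 10.04 and 10.02. Both were apart, by 0.27 and 0.20. Isg15, a ubiquitin-like modifier, was higher by 0.11, with its conjugation enzyme Ube2l6 at 0.21, its E1 enzyme Uba7 at 0.088 and its protease Usp18 at 0.12, each apart. Ifi27l2a, a mitochondrial interferon-induced gene, was higher in both libraries by unequal amounts, 8.82 and 8.50 in T2D dnMCUb against 8.33 and 8.39 in T2D empty vector. The only effector below the T2D empty vector mean was Ifit1bl1, at -0.041 and with overlapping groups.

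**Figure D2:**
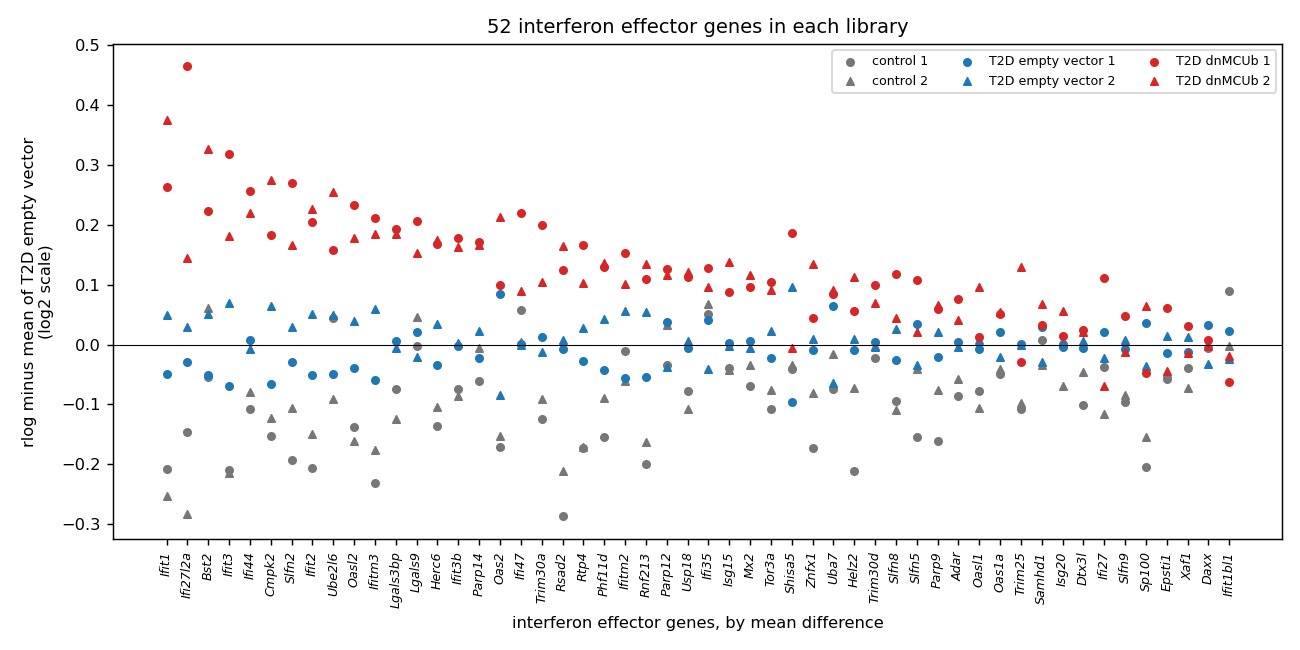
Each of the 52 interferon effector genes tested (horizontal axis, ordered by mean difference) in all 6 libraries, as rlog minus the mean of the T2D empty vector libraries (vertical axis, log2 scale; circles are library 1 and triangles library 2 of a group). From Ifit1 (0.32) down, red symbols of T2D dnMCUb lie above the blue ones of T2D empty vector for 42 genes, and the grey control symbols lie mostly below zero.

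Promoter sequences of interferon genes are shown because many of them hold the letters of the interferon-stimulated response element, which a complex that holds IRF9 binds. The motif was searched as GAAANNGAAA on both strands of the 250 bases before the start of each gene, in RefSeq promoters of GRCm38.p6, which covered 9304 of the genes tested. It was found in 291 of these (3.13%). It was present in 15 of 43 interferon effectors (34.9%), 9 of 9 guanylate binding protein and immunity GTPase genes, 5 of 11 sensors and 3 of 19 MHC class I genes with a promoter in the table. The 4 promoters below are Ifit1 (plus strand, chr19:34640639-34640888), Ifit3b (plus strand, chr19:34607707-34607956), Gbp3 (plus strand, chr3:142559794-142560043) and B2m (plus strand, chr2:122147437-122147686), with every match in capitals:
Ifit1: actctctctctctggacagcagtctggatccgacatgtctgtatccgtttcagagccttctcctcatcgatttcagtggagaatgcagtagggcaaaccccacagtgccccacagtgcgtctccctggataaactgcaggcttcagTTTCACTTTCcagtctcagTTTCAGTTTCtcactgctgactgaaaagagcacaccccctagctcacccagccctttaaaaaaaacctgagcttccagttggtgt
Ifit3b: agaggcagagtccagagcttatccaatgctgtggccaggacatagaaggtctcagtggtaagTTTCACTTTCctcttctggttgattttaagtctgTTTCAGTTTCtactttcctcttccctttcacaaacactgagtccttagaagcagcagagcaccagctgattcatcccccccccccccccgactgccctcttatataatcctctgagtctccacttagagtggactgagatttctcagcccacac
Gbp3: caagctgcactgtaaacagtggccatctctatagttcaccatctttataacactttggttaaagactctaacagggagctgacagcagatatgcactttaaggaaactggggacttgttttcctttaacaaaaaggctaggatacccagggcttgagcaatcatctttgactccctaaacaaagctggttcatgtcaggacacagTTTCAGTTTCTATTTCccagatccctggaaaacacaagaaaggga
B2m: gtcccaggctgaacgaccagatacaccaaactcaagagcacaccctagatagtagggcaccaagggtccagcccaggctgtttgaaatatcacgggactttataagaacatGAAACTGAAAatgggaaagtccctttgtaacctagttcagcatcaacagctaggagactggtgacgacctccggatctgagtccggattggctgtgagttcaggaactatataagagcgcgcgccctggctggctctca
Ifit1 and Ifit3b each hold 2 separate matches, Gbp3 holds 2 overlapping ones that begin 45 bases before the start site, and B2m holds 1. Outside the interferon and antigen presentation lists the same letters occurred in 256 tested genes, of which 132 were higher in T2D dnMCUb, with a median difference of 0.0032. A match describes these letters only, and binding was not measured.

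Guanylate binding proteins and immunity-related GTPases, large interferon-induced GTPases that attack membranes around intracellular pathogens, were mostly higher. Of 14 tested, 13 were higher, 9 apart on that side (64.3%, against 15.6% over all genes) and 1 on the other (7.14%, against 16.5%). The median was 0.077 (0.052 in library 1 and 0.127 in library 2). Gbp3 stood at 8.45 and 8.50 with empty vector and 8.66 and 8.68 with dnMCUb, a difference of 0.20. Gbp2 (0.16), Gbp7 (0.15) and Irgm2 (0.15) were apart too. Gbp6 stood at 8.11 and 7.97 with empty vector and 7.94 and 7.82 with dnMCUb, apart and lower by 0.16. Gbp family members are close paralogs, so reads may be split between them.

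Genes for antigen presentation on MHC class I, which shows peptides from inside the cell to cytotoxic lymphocytes, were higher in 21 of 22. On that side 16 were apart (72.7%, against 15.6% over all genes), and 1 on the other (4.55%, against 16.5%). The median was 0.083 (0.066 in library 1 and 0.102 in library 2). The class I heavy chain gene H2-K1 stood at 11.16 and 11.13 in the control libraries, 11.26 and 11.23 with empty vector and 11.48 and 11.51 with dnMCUb. The T2D dnMCUb libraries lay above the other 4, by 0.25 over T2D empty vector (SE 0.047; limma adjusted p = 0.78). H2-D1, the other main heavy chain, was higher by 0.21, and B2m, the invariant light chain, by 0.23. Heavy chain genes are near-identical in parts, so their reads may be shared. The peptide transporter Tap1 (0.093) and the immunoproteasome subunits Psmb8 (0.091) and Psmb9 (0.067) were apart with smaller differences. Tapbp, the transporter's chaperone tapasin, was apart on the lower side at -0.015.

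Class II presentation genes, which serve professional antigen-presenting cells, were higher in 8 of 8 and apart in 4 (50%, against 15.6% over all genes). Their median of 0.136 differed by library, with 0.047 in library 1 and 0.146 in library 2 labelled dnMCUb. It was 0.059 without T2D empty vector library 2 and 0.182 without library 1. H2-Ab1, a class II beta chain, stood at 9.46 and 9.31 with empty vector and 9.48 and 9.66 with dnMCUb. Cd74, the invariant chain, was at 10.69 and 10.51 and then 10.64 and 10.82, with overlapping groups.

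Macrophage markers were higher beside these immune genes. Of 24 tested, 23 were higher and 10 apart on that side (41.7%, against 15.6% over all genes), with a median of 0.084. Their summed level was 13.85 and 13.80 with empty vector and 14.04 and 13.85 with dnMCUb, so that library 2 stood nearly level with the higher T2D empty vector library. In library 1 the median was 0.164 and in library 2 0.035. Lyve1, a hyaluronan receptor of resident cardiac macrophages and lymphatic vessels, stood at 8.49 and 8.51 with empty vector and 8.94 and 8.70 with dnMCUb. Cd163, a scavenger receptor, was higher by 0.23, the efferocytosis receptor Mertk by 0.20 and the complement subunit C1qb by 0.24. Ccr2, a receptor of recruited monocytes, was at -0.0026. The part of macrophages in the immune gene differences was not tested.

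Complement, cytokine and chemokine genes were higher in 25 of 32. On that side 8 were apart (25%, against 15.6% over all genes), and 1 on the other (3.13%, against 16.5%). The median was 0.044 (0.089 in library 1 and 0.0087 in library 2). Ccl11, the eosinophil chemokine eotaxin, was higher by 0.18 and Ccl9 by 0.17, both apart. Ccl2, a monocyte attractant, was apart on the lower side, from 5.99 and 6.04 to 5.98 and 5.86.

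Genes of the integrated stress and unfolded protein response, chaperones of the endoplasmic reticulum among them, had a median on the higher side in both libraries labelled dnMCUb. Of 31 tested, 23 were higher, 16 apart on that side (51.6%, against 15.6% over all genes) and 4 on the other (12.9%, against 16.5%). The median was 0.065, with 0.065 in library 1 and 0.073 in library 2. Manf, a secreted reticulum-resident survival factor, had an rlog of 9.01 and 9.10 in the control libraries, 8.71 and 8.80 with empty vector and 8.96 and 9.10 with dnMCUb. T2D empty vector was the lowest group, and T2D dnMCUb overlapped control. The difference between the diabetic groups was 0.28 (SE 0.061; limma adjusted p = 0.78). Calr, the calcium-binding chaperone calreticulin, ran likewise at 12.09 and 12.20 in the control libraries, 11.89 and 12.000 with empty vector and 12.13 and 12.20 with dnMCUb, a difference of 0.22. The T2D empty vector libraries enter both the comparison with control and the one with T2D dnMCUb, so the 2 are not independent.

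The folding genes Pdia4 (0.17), Hsp90b1 (0.16), Dnajb9 (0.15), Pdia6 (0.13), Creld2 (0.12) and Hspa5 (0.12), which encodes BiP, were higher with groups apart. So was Xbp1, a transcription factor of the unfolded protein response, by 0.14. Genes that ATF4 controls in amino acid and one-carbon metabolism were split. The amino acid transporter chain Slc3a2 was apart on the higher side at 0.092. Mthfd2 was apart on the lower side at -0.097, as were Asns at -0.043 and Chac1 at -0.065, and Ddit3, encoding CHOP, was at 0.036. Ern1, the sensor that splices Xbp1 mRNA, was apart and lower at -0.087.

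The promoters of 4 of these chaperone genes are shown because the endoplasmic reticulum stress element, the binding motif of ATF6 with NF-Y, is rare and clustered in them. Searched as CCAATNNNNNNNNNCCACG on both strands of the same 250 bases, it was found in 12 of 9304 tested genes with a promoter (0.129%), and 6 of these 12 were among the 27 list members with a promoter. All 6 were higher in T2D dnMCUb and 5 were apart. Shown are Calr (minus strand, chr8:84846932-84847181), Hsp90b1 (minus strand, chr10:86705445-86705694), Creld2 (plus strand, chr15:88819396-88819645) and Pdia6 (plus strand, chr12:17266339-17266588), each read 5′ to 3′ on the strand of its gene with matches in capitals:
Calr: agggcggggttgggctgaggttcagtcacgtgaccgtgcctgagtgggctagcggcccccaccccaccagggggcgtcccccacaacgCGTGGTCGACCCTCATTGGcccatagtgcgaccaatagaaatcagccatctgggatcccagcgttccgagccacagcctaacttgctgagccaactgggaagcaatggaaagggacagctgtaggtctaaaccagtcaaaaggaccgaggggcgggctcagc
Hsp90b1: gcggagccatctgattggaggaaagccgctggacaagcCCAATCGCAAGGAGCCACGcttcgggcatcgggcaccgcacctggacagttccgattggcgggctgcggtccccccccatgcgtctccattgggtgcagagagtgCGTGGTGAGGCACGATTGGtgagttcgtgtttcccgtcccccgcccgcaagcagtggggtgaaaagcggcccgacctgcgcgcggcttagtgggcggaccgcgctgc
Creld2: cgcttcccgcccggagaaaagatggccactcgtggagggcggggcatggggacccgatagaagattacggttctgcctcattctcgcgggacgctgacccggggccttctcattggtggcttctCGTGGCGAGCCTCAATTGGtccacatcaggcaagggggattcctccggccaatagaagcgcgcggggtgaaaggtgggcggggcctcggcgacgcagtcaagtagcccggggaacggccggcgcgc
Pdia6: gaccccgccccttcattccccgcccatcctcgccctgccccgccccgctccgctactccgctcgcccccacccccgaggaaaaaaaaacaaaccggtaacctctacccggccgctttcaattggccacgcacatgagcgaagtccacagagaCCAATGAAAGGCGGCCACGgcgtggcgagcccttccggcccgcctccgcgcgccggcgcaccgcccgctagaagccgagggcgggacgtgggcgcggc
Hsp90b1 holds 2 matches and the others 1 each. The 6 other tested genes with this motif included 2 that were higher, with a median of -0.047.

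Cytosolic heat shock genes that respond to misfolded protein were higher in part. Of 25 tested, 16 were higher, 9 apart on that side (36%, against 15.6% over all genes) and 1 on the other (4%, against 16.5%). The median was 0.019 (-0.012 in library 1 and 0.060 in library 2). Hspa1b and Hspa1a, near-identical genes for the inducible HSP70, were apart, and reads may be split between the copies. Hspa1b stood at 5.64 and 5.62 with empty vector and 5.77 and 5.87 with dnMCUb, and Hspa1a at 5.55 and 5.55 and then 5.68 and 5.79. The differences were 0.19 and 0.19. Their partners Dnaja1 (0.28) and Dnajb1 (0.24), and Hsp90aa1 (0.23), were apart on the same side. Library 2 labelled dnMCUb was the higher one for each of them, with Dnajb1 at 8.55 and 8.88. Of the small heat shock proteins of muscle, Hspb1 was apart on the higher side at 0.14 and Hspb8 on the lower at -0.13. The heat shock element, searched as GAANNTTCNNGAA on both strands, occurred in 0 of 19 promoters of this list and in 0.484% of all. Only exact matches to these letters within the 250 bases were counted, so looser forms of the element would be missed. Binding was not measured.

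Zbtb16, a zinc finger transcription factor induced by glucocorticoids, stood at 9.47 and 9.49 in the control libraries, 9.76 and 9.64 with empty vector and 10.12 and 10.42 with dnMCUb. Both libraries labelled dnMCUb were above all others, by 0.43 and 0.72 over the T2D empty vector mean, and the mean difference was 0.57 (SE 0.092; limma adjusted p = 0.78). The authors' deposited table gives a log2 fold of 0.99 (adjusted p = 9.24e-05). Without library 1 labelled dnMCUb it shared the smallest adjusted p (0.00866) with Gm21738.

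Other glucocorticoid targets were divided. Of 15 tested, Zbtb16 included, 12 were higher. The groups were apart on that side for 4 (26.7%, against 15.6% over all genes) and on the other for 1 (6.67%, against 16.5%). The median of 0.063 combined -0.0051 in library 1 with 0.175 in library 2. It was -0.022 without T2D empty vector library 2 and 0.172 without library 1. Fkbp5, a cochaperone of the glucocorticoid receptor, had 8.38 and 8.25 with empty vector and 8.66 and 8.48 with dnMCUb. Tsc22d3, encoding the mediator GILZ, was at 11.18 and 11.04 and then 11.24 and 11.52. Both were apart, by 0.26 and 0.27, with library 1 the higher for Fkbp5 and library 2 for Tsc22d3. Per1 was at 0.012, with -0.20 in library 1 and 0.23 in library 2, and the receptor gene Nr3c1 was apart on the lower side at -0.054.

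Most genes of the circadian clock overlapped between the groups. Of 21 tested, 13 were higher, with a median of 0.0084 (-0.0036 and 0.053 by library). Apart on that side were 3 (14.3%, near the 15.6% over all genes tested) and on the other 1, Bhlhe41 at -0.054. Per2, a repressor of the clock loop, stood at 8.08 and 7.88 with empty vector and 8.10 and 8.41 with dnMCUb, and Hlf, an output factor, at 8.39 and 8.50 and then 8.60 and 8.66. They differed by 0.27 and 0.19, while the core activator Arntl was at -0.065. The hour at which hearts were taken is not given in the sources used.

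Immediate early genes, which respond within minutes to signals and to tissue handling, were higher in 21 of 23. Of the 23, 10 were apart on that side (43.5%, against 15.6% over all genes). Their median was 0.101, or 0.040 and 0.093 in the 2 libraries, and it was 0.050 without T2D empty vector library 2. Dusp1, a phosphatase of stress kinases, was higher by 0.33, Fos by 0.23, Egr1 by 0.17 and Klf4 by 0.16.

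**Figure D3:**
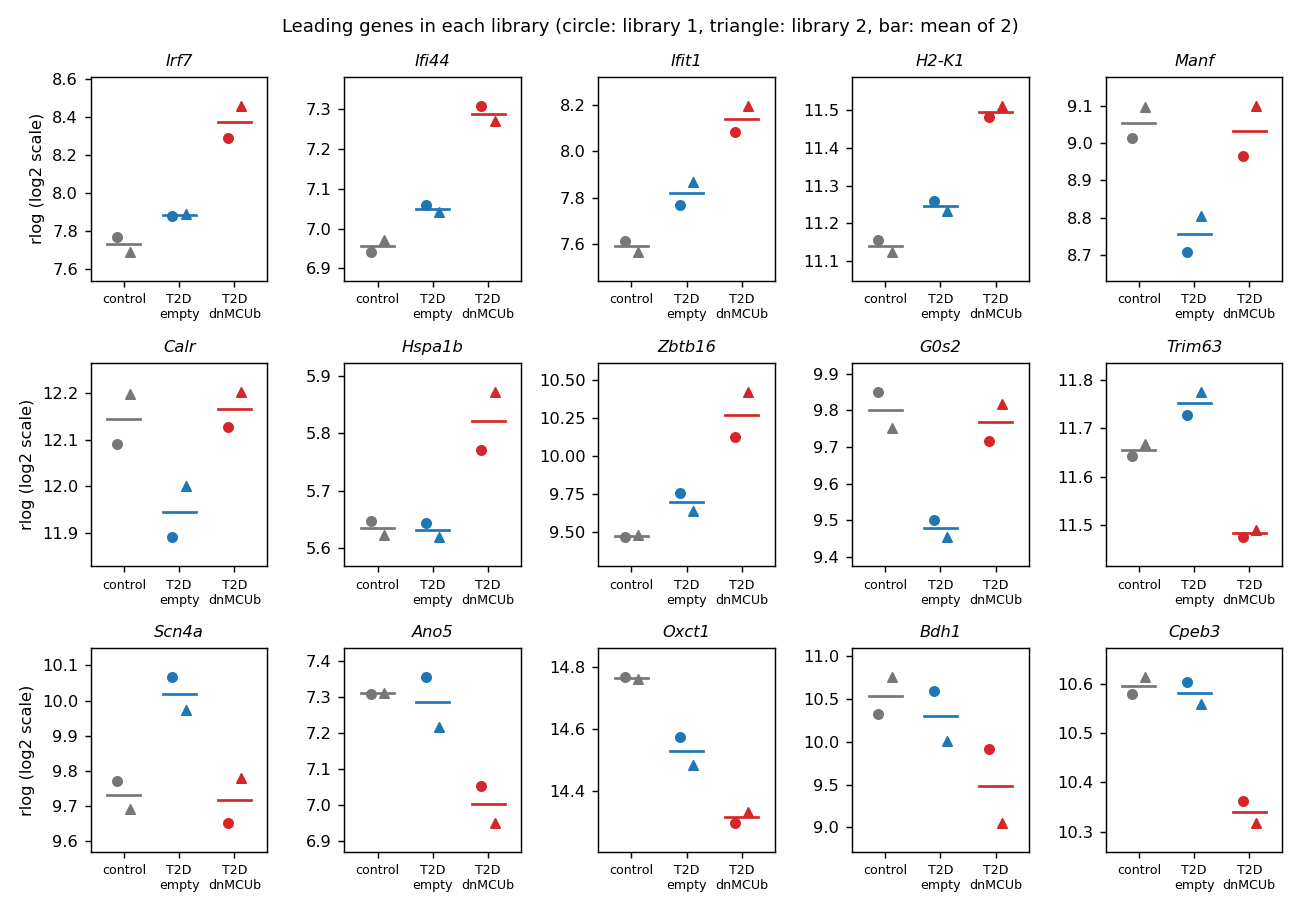
The rlog of 15 genes (vertical axis, log2 scale, a separate scale per gene) in each library of control, T2D empty vector and T2D dnMCUb, with circles for library 1, triangles for library 2 and a bar at the mean of 2. Irf7 (8.29 and 8.46 in T2D dnMCUb) and Zbtb16 (10.12 and 10.42) lie above all other libraries, Trim63 (11.48 and 11.49) and Cpeb3 (10.36 and 10.32) below, and Manf, Calr and G0s2 show T2D empty vector as the lowest group.

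Genes of red cells had the largest median of all the lists. Of 8 tested, 7 were higher and all 7 were apart (87.5%, against 15.6% over all genes). The median was 0.727 (0.515 in library 1 and 0.939 in library 2). Hbb-bs, the adult beta globin gene, had an rlog of 11.97 and 10.96 in the control libraries, 10.94 and 10.97 with empty vector and 11.80 and 12.36 with dnMCUb. Both T2D dnMCUb libraries lay above T2D empty vector, and control library 1 lay among them. Hba-a1, an alpha globin gene, stood at 9.84 and 8.996 in the control libraries, 8.97 and 9.07 with empty vector and 9.68 and 10.21 with dnMCUb, and Alas2, the erythroid enzyme that starts heme synthesis, at 8.16 and 7.53 in the control libraries, 7.44 and 7.52 with empty vector and 7.97 and 8.37 with dnMCUb. The authors' deposited table calls Hba-a2, Hba-a1, Hbb-bt, Hbb-bs and Alas2, which with Tent5c, a poly(A) polymerase that stabilises mRNA in red cell precursors, Irf7, Zbtb16 and the predicted gene Gm10718 make up its 9. Globin paralogs share sequence, and the part of red blood cells in the hearts' globin values was not tested. The summed red cell level was 13.22 and 12.63 in the control libraries, 12.62 and 12.61 with empty vector, and 13.05 and 13.45 with dnMCUb. Fech, the last enzyme of heme synthesis and one that all cells use, was at -0.040 and overlapped.

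In the wider heme and iron list, 13 of 21 genes were higher, with a median of 0.033 (-0.0074 and 0.033 by library). Apart on that side were 4 (19.0%, near the 15.6% over all genes tested) and on the other 3 (14.3%, near 16.5%). Bach1, a heme-sensing repressor, was apart and lower by 0.13. The ferritin light chain gene Ftl1 was at 0.087 and overlapped.

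Cytosolic ribosomal protein genes were higher in small, even steps. Of 57 tested, 50 were higher, and 15 had an unadjusted p under 0.05. On the higher side 41 were apart (71.9%, against 15.6% over all genes), and 2 on the lower (3.51%, against 16.5%). The median was 0.096, with 0.063 in library 1 and 0.135 in library 2, and the members ran from -0.038 to 0.166. Rpl19 (0.16), Rpl13a (0.17), Rps19 (0.15) and Rps15a (0.16) had the smallest p in the list. Ribosomal protein genes have many processed copies in the genome, and how reads shared with them were counted is not given in the sources used.

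Genes lower in T2D dnMCUb were led by a ubiquitin ligase of muscle wasting. Trim63, which encodes MuRF1, a ligase that marks sarcomere proteins for degradation, had an rlog of 11.64 and 11.67 in the control libraries, 11.73 and 11.78 with empty vector and 11.48 and 11.49 with dnMCUb. The T2D dnMCUb libraries were the lowest 2 of the 6 and differed from each other by less than any gap to another group. The difference was -0.27 (SE 0.049; limma adjusted p = 0.78). Fbxo32, encoding the partner ligase atrogin-1, stood at 11.84 and 11.93 in the control libraries, 12.05 and 11.93 with empty vector and 11.67 and 11.81 with dnMCUb, lower by 0.25 with groups apart.

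Autophagy and atrophy genes as a list were lower in 18 of 24, with a median of -0.054 (-0.058 and -0.034 by library). On the lower side 9 were apart (37.5%, against 16.5% over all genes), and 3 on the higher (12.5%, against 15.6%). Ulk1, the kinase that starts autophagy, was lower by 0.16, the cargo receptor Sqstm1 by 0.14, Becn1 by 0.097 and the transcription factor Foxo1 by 0.072, all apart. Fbxo30, another muscle ubiquitin ligase, was apart on the higher side at 0.10.

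The other leading lower genes came from varied functions. Ano5, a membrane scramblase of muscle that takes part in membrane repair, stood at 7.31 and 7.31 in the control libraries, 7.35 and 7.22 with empty vector and 7.05 and 6.95 with dnMCUb. Cpeb3, a repressor of mRNA translation, stood at 10.58 and 10.61 in the control libraries, 10.60 and 10.56 with empty vector and 10.36 and 10.32 with dnMCUb. In both genes the T2D dnMCUb libraries were below the other 4, by 0.28 and 0.24 under T2D empty vector. The phosphoinositide phosphatase gene Synj2 was lower by 0.21, Wfs1, which encodes a calcium-regulating protein of the endoplasmic reticulum, by 0.20, Nol8, a nucleolar gene, by 0.19 and Coro6, of the actin-binding coronins, by 0.23. The predicted gene Gm36827 was lower by 0.31. On the higher side, besides the genes above, Fam107a, an actin-associated stress response gene, was higher by 0.25. None of these passed (limma adjusted p of at least 0.78).

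Among ion channels, 2 sodium channel subunits were lower in T2D dnMCUb. Scn4a, the skeletal muscle sodium channel, which the heart also expresses, stood at 9.77 and 9.69 in the control libraries, 10.07 and 9.97 with empty vector and 9.65 and 9.78 with dnMCUb, so that T2D dnMCUb overlapped control and T2D empty vector was highest. Scn4b, an auxiliary subunit, stood at 10.54 and 10.64 in the control libraries, 11.32 and 10.99 with empty vector and 10.84 and 10.80 with dnMCUb. The differences between the diabetic groups were -0.30 and -0.33, each with groups apart.

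Over 31 ion channel genes, 21 were lower, with a median of -0.041 (-0.082 and 0.019 by library). Apart on that side were 7 (22.6%, against 16.5% over all genes tested) and on the other 2 (6.45%, against 15.6%). Cacna1h, a T-type calcium channel, was apart on the higher side, at 8.02 and 8.15 with empty vector and 8.53 and 8.34 with dnMCUb. Gja1, the ventricular connexin 43, was lower by 0.086, and Gja5, the atrial and conduction connexin 40, higher by 0.16. Gja5 stood at 7.74 and 7.80 with empty vector and 8.06 and 7.82 with dnMCUb. Library 2 labelled dnMCUb was thus only just above T2D empty vector library 2.

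Sarcoplasmic reticulum calcium genes were mostly lower. Ryr2, the calcium release channel, stood at 15.91 and 15.94 with empty vector and 15.61 and 15.78 with dnMCUb, lower by 0.23. Atp2a2, the calcium pump SERCA2, was lower by 0.13 with groups just apart, the nearest libraries at 17.516 and 17.5. Its inhibitor Pln was lower by 0.045 and the exchanger Slc8a1 by 0.062, both with overlap. Of 24 calcium handling genes 16 were lower, with a median of -0.040 (-0.067 and -0.0085 by library). Apart on that side were 4 (16.7%, against 16.5% over all genes tested) and on the other 2 (8.33%, against 15.6%). Sarcomere genes were lower in 23 of 30. Apart on that side were 5 (16.7%, near the 16.5% over all genes tested), among them Flnc (-0.20), Ttn (-0.26) and Tnnc1 (-0.12). The median of the sarcomere list was -0.072, but it was -0.152 in library 1 and 0.024 in library 2. The myosin heavy chains Myh6 and Myh7 were at -0.065 and 0.21 and overlapped.

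Insulin signalling and growth control genes were lower in 19 of 26, with a median of -0.023 (-0.059 and -0.011 by library). On the lower side 9 were apart (34.6%, against 16.5% over all genes), and 2 on the higher (7.69%, against 15.6%). Tsc2 and Tsc1, which together restrain the growth kinase mTORC1, were lower by 0.15 and 0.13. Tbc1d4, the AKT substrate that gates glucose transporter traffic, stood at 10.08 and 9.98 with empty vector and 9.74 and 9.91 with dnMCUb, lower by 0.20. Irs1 was lower by 0.095 and the receptor gene Insr by 0.079, of which only Irs1 was apart.

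Glucose uptake and glycolysis had lower values at 3 regulated steps. Slc2a4, the insulin-dependent glucose transporter GLUT4, stood at 12.83 and 12.76 in the control libraries, 12.65 and 12.57 with empty vector and 12.35 and 12.54 with dnMCUb. Hk2, the muscle hexokinase that traps glucose in the cell, stood at 13.03 and 13.08 in the control libraries, 12.93 and 12.90 with empty vector and 12.64 and 12.79 with dnMCUb. Pfkfb2, the cardiac enzyme that makes the activator of phosphofructokinase, stood at 9.86 and 9.92 in the control libraries, 9.96 and 9.73 with empty vector and 9.62 and 9.65 with dnMCUb. All 3 had T2D dnMCUb below T2D empty vector without overlap, by 0.17, 0.20 and 0.22. Of 22 genes in the list 18 were lower, with a median of -0.049, or -0.103 in library 1 and 0.0004 in library 2. On the lower side 7 were apart (31.8%, against 16.5% over all genes), and 2 on the higher (9.09%, against 15.6%).

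In ketone oxidation 5 of 7 genes were lower, with a median of -0.021 (-0.097 and 0.041 by library). The groups were apart on that side for 2 (28.6%, against 16.5% over all genes) and on the other for 1 (14.3%, against 15.6%). Bdh1 had the most negative difference of all 13094 genes. This mitochondrial enzyme, which opens hydroxybutyrate oxidation, stood at 10.32 and 10.75 in the control libraries, 10.60 and 10.01 with empty vector and 9.91 and 9.05 with dnMCUb. Library 2 labelled dnMCUb was far below the rest, and library 1 lay just under T2D empty vector library 2. The difference of -0.82 had an SE of 0.29 (limma adjusted p = 0.869). Oxct1, the enzyme that activates ketone bodies for oxidation, stood at 14.77 and 14.76 in the control libraries, 14.58 and 14.48 with empty vector and 14.30 and 14.33 with dnMCUb and was lowest in T2D dnMCUb, by 0.21 (SE 0.074).

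Genes of fatty acid oxidation, the TCA cycle and the respiratory chain lay on opposite sides of the T2D empty vector mean in the 2 libraries. In the TCA cycle 0 of 20 genes were above the T2D empty vector mean in library 1 and 18 in library 2, with medians of -0.168 and 0.053. In fatty acid uptake and oxidation the counts were 0 and 22 of 25, with medians of -0.166 and 0.084. In the nuclear-encoded respiratory chain they were 3 and 71 of 73, with medians of -0.126 and 0.082. The 7 tested genes of mitochondrial DNA gave 0 and 7, with medians of -0.160 and 0.118. The group medians of the first 3 lists, -0.059, -0.038 and -0.026, combine these unlike libraries. The pyruvate dehydrogenase list had medians of -0.152 and 0.00065, with 1 and 8 of 16 genes above the mean, and PPAR alpha targets -0.131 and 0.109, with 5 and 18 of 20. Mitochondrial biogenesis and dynamics genes gave 3 and 18 of 29 above the mean, with medians of -0.083 and 0.031, and mitochondrial proteases and chaperones 1 and 9 of 12, with medians of -0.131 and 0.029. Ventricular myocyte markers split in the same way, with 0 and 9 of 12 above the mean and medians of -0.166 and 0.061, and their part in these values was not tested.

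**Figure D4:**
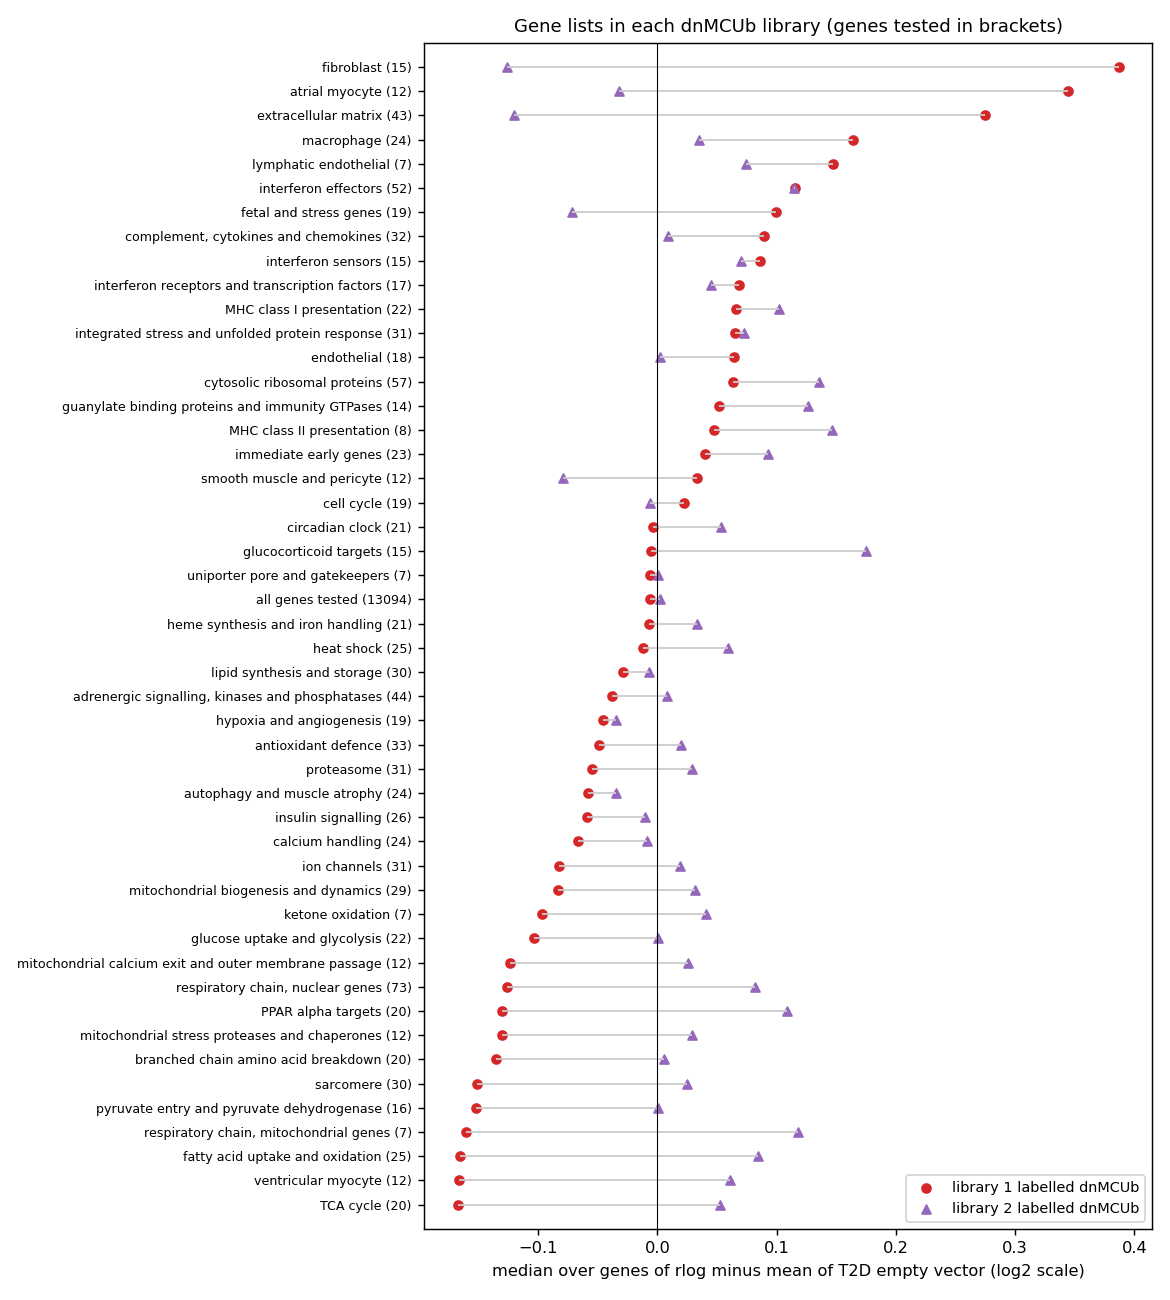
Median over the genes of each list of the rlog minus the T2D empty vector mean (horizontal axis, log2 scale), for library 1 (red circles) and library 2 (purple triangles) labelled dnMCUb, with the number of genes tested in brackets and lists ordered by library 1; the red cell list, at 0.515 and 0.939, is off the scale and left out. Interferon effectors lie at 0.115 and 0.115, whereas fibroblast markers lie at 0.387 and -0.126.

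Of 6 single fuel genes, 5 lay on opposite sides of the T2D empty vector mean in the 2 libraries, and Cd36 was below it in both. Pdk4, the kinase that shuts off pyruvate dehydrogenase, differed by -0.22 in library 1 and 0.29 in library 2, and Pdk2 by -0.20 and 0.073. Pdha1, the catalytic subunit, differed by -0.15 and 0.065, and its calcium-activated phosphatase Pdp1 by -0.073 and 0.030. Cpt1b, the gate of mitochondrial fatty acid entry, differed by -0.17 and 0.098, and the fatty acid transporter Cd36 by -0.14 and -7.1e-05. Each of these 6 genes was lower in library 1 than in library 2. The thioesterases Acot1 and Acot2 had group differences of 0.058 and -0.074, the uncoupling protein gene Ucp3 -0.021, and the regulators Ppara and Ppargc1a -0.040 and -0.063, none of them apart.

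Branched chain amino acid breakdown was lower in 18 of 20, with medians of -0.136 and 0.006 by library. On the lower side 7 were apart (35%, against 16.5% over all genes), and 0 on the higher (against 15.6%). Dbt and Bckdha, subunits of the rate-limiting dehydrogenase, were lower by 0.14 and 0.13, and Pcca, of propionate disposal, by 0.14. In lipid synthesis and storage 15 of 30 were higher and the median was -0.0005 (-0.029 and -0.0067 by library). G0s2, an inhibitor of the main triglyceride lipase, stood at 9.85 and 9.75 in the control libraries, 9.50 and 9.45 with empty vector and 9.72 and 9.82 with dnMCUb. T2D empty vector was the lowest group for it, and T2D dnMCUb overlapped control, with a difference of 0.29 between the diabetic groups (SE 0.055). Mlxipl, the glucose-sensing factor ChREBP, was lower by 0.16, Insig1 by 0.16 and Lpin1 by 0.14, all apart.

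Stromal and atrial markers separated the libraries more than the groups. Fibroblast markers had medians of 0.387 in library 1 and -0.126 in library 2, and extracellular matrix genes of 0.275 and -0.120. Of 15 fibroblast markers and 43 matrix genes, 14 and 33 had the higher mean in T2D dnMCUb. In each list 1 was apart, on the higher side (6.67% and 2.33%, against 15.6% over all genes). The T2D empty vector libraries differed from each other too: the matrix median was -0.040 without library 1 and 0.259 without library 2. Summed fibroblast levels were 15.98 and 16.27 with empty vector and 16.58 and 16.10 with dnMCUb. Atrial markers, of which 12 were tested, had medians of 0.344 and -0.032.

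Among cardiac stress genes, Nppa, atrial natriuretic peptide, stood at 10.52 and 11.01 in the control libraries, 10.02 and 9.63 with empty vector and 10.89 and 10.04 with dnMCUb, higher in T2D dnMCUb by 0.64, and it is also an atrial marker. Library 2 labelled dnMCUb lay only just above T2D empty vector library 1, and both control libraries lay above that pair. The atrial light chain Myl7 stood at 9.45 and 7.32 in the control libraries, 7.46 and 7.94 with empty vector and 10.22 and 7.40 with dnMCUb, so that library 1 labelled dnMCUb and control library 1 were high and the other 4 low. Nppb, the B-type peptide, was at -0.15 and overlapped. Acta1, skeletal alpha actin, had 11.37 and 10.35 in T2D dnMCUb against 11.06 and 11.42 in T2D empty vector, with library 2 low.

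Leaving out library 1 labelled dnMCUb, 14 genes passed in limma, 12 higher and 2 lower in the remaining library. They included Irf7, Zbtb16, Dnaja1, Dnajb1, Hspa1a, Gm36827, Txnip, Angptl4, Myom2, Myot, Gm10801 and Gm21738. The first 6 had both libraries on the same side of both T2D empty vector libraries, as did the predicted genes Gm10801 and Gm21738. Txnip, an inhibitor of thioredoxin and glucose uptake, stood at 13.02 and 12.90 with empty vector and 12.99 and 13.70 with dnMCUb. Angptl4, a lipase inhibitor, stood at 7.34 and 7.28 and then 7.33 and 7.90. Myom2, an M-band protein, stood at 14.27 and 14.26 and then 14.15 and 14.78, and Myot, a Z-disc protein, at 10.10 and 10.20 and then 10.17 and 9.62. Library 1 labelled dnMCUb lay between the T2D empty vector libraries for Txnip, Angptl4 and Myot, and below both for Myom2, for which library 2 lay above both. With 1 library in the group, its spread is taken from the other groups.

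Several further lists were measured. Proteasome genes were lower in 25 of 31, with a median of -0.017 (-0.054 and 0.029 by library). On the lower side 3 were apart (9.68%, against 16.5% over all genes), and 0 on the higher (against 15.6%). In library 1, 1 of 31 was above the T2D empty vector mean, against 24 in library 2. Antioxidant genes had a median of -0.018 (-0.049 and 0.020 by library), with Nqo1 lower by 0.17 and Gpx1 higher by 0.20, both apart. Adrenergic signalling genes with their kinases and phosphatases had 18 of 44 higher, with a median of -0.0076 (-0.038 and 0.0084 by library). Cell cycle genes had 11 of 19 higher, with a median of 0.008 (0.023 and -0.0061 by library), and hypoxia and angiogenesis genes 8 of 19, with a median of -0.052 (-0.046 and -0.035 by library). Mitochondrial biogenesis and dynamics genes were lower in 21 of 29. The groups were apart on that side for 7 (24.1%, against 16.5% over all genes) and on the other for 2 (6.90%, against 15.6%). Their median group difference was -0.037, with Opa1, the inner membrane fusion protein, at -0.14. Mitochondrial proteases and chaperones were lower in 10 of 12 (median -0.059), with the protease Lonp1 at -0.14 and apart. Endothelial markers had a median of 0.056 (0.065 and 0.0025 by library) and smooth muscle and pericyte markers one of 0.00022 (0.034 and -0.079 by library).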

How the data were processed

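Per the labels' protocols, total RNA of 6 mouse heart libraries was depleted of ribosomal RNA and sequenced with a stranded kit. Tools in the submitters' processing notes are STAR 2.5.2a, bcl2fastq 2.20.0.422 and DESeq2, and builds are mm10, GRCm38 and hg38, with no roles stated. How reads were counted, and with which strand setting, is not given in the sources used. The authors deposited 1 table of rlog values on the log2 scale (54352 genes, 22778 at 0 in all libraries), with their own log2 folds, p-values and adjusted p-values. All 6 value columns carried a sample label. Symbols of 26 genes turned into dates were restored by identifier.

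Group means of rlog were compared by limma 3.58.1 (R 4.3.3) across the 13094 genes whose mean rlog reached 5, with all 6 libraries in 1 fit (3 residual degrees of freedom, 4.6 from the prior), a mean-variance trend and Benjamini-Hochberg adjustment at 0.05. The script was tested on simulated data. Errors beside differences are limma's standard errors. An exact permutation test of 2 against 2 libraries cannot go below p = 0.333 and was not used. Of 41 pathway and 21 cell type lists, members were counted and medians taken, with no test. Genes named are the 10 per direction with the smallest p and groups apart, those called in the authors' deposited table, up to 4 per list with the smallest p, and a fixed set of uniporter, fuel, calcium, stress and immune genes. Other list members were named as examples after their values were seen. The members and lists were chosen with earlier results of these data known. Some genes are not reported here. Promoters are RefSeq's, and motif searches were exact.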

Additional observations from a re-analysis of the deposited data

How the results depend on the processing

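The values rest on 2 libraries per group with no counts, so counting error could not be set apart from spread between libraries, and differences as small as most of those given here could not be separated from that spread after correction. The count of called genes was 0 with all libraries and 0 when the fit held only the 4 diabetic libraries, when no filter or a minimum mean rlog of 8 was used, without the trend, with array weights, with library medians subtracted and with the replicate number as a block. It ran from 0 to 14 as single libraries were left out, and was 14 only without library 1 labelled dnMCUb. The number of genes at an unadjusted p under 0.05 was 739, and ran from 357 (without T2D empty vector library 1) to 2061 (without library 2 labelled dnMCUb). It was 1603 with no filter, among 31574 genes, and 451 at a minimum mean rlog of 8, among 7444 genes. With library medians subtracted 347 of 766 such genes were higher and 419 lower, against 408 and 331, a change in the share of higher genes from 55.2% to 45.3%.

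Replicate numbers did not pair the libraries: deviations of same-numbered libraries had a correlation of -0.51 between the diabetic groups, -0.088 between control and T2D empty vector and -0.013 between control and T2D dnMCUb. The replicate block left 511 genes at an unadjusted p under 0.05 and called 0. With the pairing crossed between the diabetic groups, an alternative chosen after seeing the data, 2 genes were called and 1315 had an unadjusted p under 0.05.

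Of 182 genes named, 28 took the other sign in at least 1 fit with a library left out, and all of these had missed the threshold with all libraries. Their differences then ran as follows: Acot1 from -0.057 to 0.17, Acot2 from -0.25 to 0.11, Acta1 from -0.89 to 0.12, Arntl from -0.22 to 0.087, Ccr2 from -0.094 to 0.089, Cpt1b from -0.17 to 0.098, Ddit3 from -0.025 to 0.096, Fech from -0.087 to 0.0078 and Insr from -0.18 to 0.022. Further ranges were Mcu from -0.012 to 0.041, Mcur1 from -0.13 to 0.0091, Micu2 from -0.11 to 0.028, Myh6 from -0.24 to 0.11, Myh7 from -0.19 to 0.61, Myl7 from -0.30 to 2.52, Myom2 from -0.12 to 0.51, Myot from -0.53 to 0.018 and Pdha1 from -0.15 to 0.065. The remaining ones were Pdk2 from -0.20 to 0.073, Pdk4 from -0.22 to 0.29, Pdp1 from -0.073 to 0.030, Per1 from -0.20 to 0.23, Pln from -0.17 to 0.076, Ppara from -0.12 to 0.042, Ppargc1a from -0.23 to 0.10, Slc8a1 from -0.14 to 0.011, Smdt1 from -0.047 to 0.019 and Ucp3 from -0.28 to 0.24. The other values of the named genes kept their sign in all settings run, and 14 genes passed without library 1 labelled dnMCUb. The cause was not tested. Of 48 list medians, 30 moved by more than the SD between libraries in at least 1 setting.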

Other observations

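Resident mast cells, lymphatic vessels and the conduction system have small marker lists not described above. Lymphatic endothelial markers were higher in 6 of 7. The groups were apart on that side for 4 (57.1%, against 15.6% over all genes) and on the other for 1 (14.3%, against 16.5%). Their median was 0.131 (0.147 and 0.074 by library). Mmrn1, a lymphatic adhesion protein, had 8.76 and 8.86 with empty vector and 9.24 and 8.98 with dnMCUb. Prox1, of the same list, had 9.17 and 9.14 with empty vector and 9.04 and 9.09 with dnMCUb, apart on the lower side. Lyve1, apart on the higher side, is also in the macrophage list. Of 4 mast cell markers tested all were higher and 3 apart (75%, against 15.6% over all genes). Their median was 0.069 (0.067 and 0.071 by library). The 3 apart, Cma1, Cpa3 and Mcpt4, had rlog values of 5.33 to 5.64, near the minimum mean of 5 required. Kit, at 6.59 to 6.68, differed by 0.013 and overlapped. The 4 conduction system markers tested had medians of 0.200 in library 1 and 0.017 in library 2 labelled dnMCUb.

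A set of predicted genes stood highest in library 2 labelled dnMCUb, and was singled out after its values were seen. Gm10800 stood at 9.87 and 8.30 in the control libraries, 8.46 and 8.47 with empty vector and 9.07 and 11.53 with dnMCUb, and its difference of 1.84 was the largest of all 13094 genes tested. Gm10801 stood at 6.39 and 6.03 in the control libraries, 6.07 and 6.06 with empty vector and 6.23 and 7.28 with dnMCUb, and Gm21738 at 5.54 and 5.38 in the control libraries, 5.39 and 5.42 with empty vector and 5.45 and 6.11 with dnMCUb. Gm10718, which the authors' deposited table calls, had a mean rlog under 5 and was not tested.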
